A study of Mus musculus with 2 samples.

Results

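The 10 genes described here encode inflammatory cytokines and proteins of the NF-kB response: Il1b, Il1a, Tnf, Il6, Il1rn, Nfkbia, Tnfaip3, Ptgs2, S100a8 and S100a9. They were taken by symbol, 10 of the 32574 genes in the files, without use of a measured value. Adductor muscle was taken on day 7 after femoral artery ligation, an operation that makes the hind limb ischaemic, from WT control littermates and from Apoa1bp-/- mice. Surgery was done on 4 mice per genotype, both genotypes were ligated, and ages are not given. Each genotype is 1 single-cell library, and the sources do not say how many of its mice it holds. Apoa1bp (now Naxe) encodes AIBP, known as a binding partner of apolipoprotein A-I and as the enzyme NAD(P)HX epimerase. The labels do not describe how the allele was made, and no unoperated muscle was analysed here. Because neither genotype has a second library, differences between genotypes could not be tested and are described.

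NF-kB transcription factors are held in the cytoplasm by inhibitors such as IkBα, the product of Nfkbia. Signals from the IL-1, TNF and Toll-like receptors lead to loss of the inhibitor, and NF-kB then switches on cytokine genes. It also switches on Nfkbia and Tnfaip3, whose products end the signal, so these genes work as negative feedback. In ischaemic muscle, neutrophils, monocytes and macrophages enter the tissue and are known sources of IL-1 and TNF, while IL-6 can come from stromal cells.

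Cells were placed in classes by marker lists that contain none of the 10 genes, and a class is named "-like" for its list. The WT library kept 12344 cells with a median of 4168 unique molecular identifiers (UMIs, each a counted transcript), and the knockout library 8632 cells with a median of 6607. The library totals before filtering were 80954991 and 80444279 UMIs. Naxe had 4068 UMIs in the WT library and 0 in all 9392 barcodes of the knockout library. The 2 libraries shared 43 barcodes, 28 of them among the kept cells. Neutrophil-like cells were 55 of the WT cells (0.446%, exact 95% interval 0.336 to 0.580%) and 158 of the knockout cells (1.83%, 1.56 to 2.14%). Macrophage-like cells numbered 5200 and 3328, and fibroblast-like cells 3858 and 1566. Muscle fibre-like cells, which mark the labelled tissue, numbered 218 and 313. Of the 10 genes that led the neutrophil-like cells by fold, 2 were markers of their own list, 0 were markers of another, and 4 were members described here (S100a9, S100a8, Il1b and Ptgs2). Levels are given in CPM, the UMIs of a gene per 1000000 UMIs of the class in that library. Intervals are exact 95% intervals for counting error alone, and ratios divide the knockout level by the WT level.

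In the RefSeq promoters (assembly GRCm38.p6, 250 bases before to 50 after each start), all 10 genes were found, with 13 promoters. The NF-kB consensus motif of 10 bases, searched on both strands, had an exact match in the promoters of 3 members, Il6, Nfkbia and Tnfaip3, which are the IL-6 gene and both feedback inhibitors. Of the 32851 promoters known to RefSeq there, 8.46% held an exact match, or 9.55% of 27025 genes. With 1 mismatch allowed, all 10 members and 65.6% of all genes had a match. The 250 bases before the start of those 3 genes are shown because they hold these matches, which stand in capitals.
Il6, chr5:30012864-30013113, plus strand: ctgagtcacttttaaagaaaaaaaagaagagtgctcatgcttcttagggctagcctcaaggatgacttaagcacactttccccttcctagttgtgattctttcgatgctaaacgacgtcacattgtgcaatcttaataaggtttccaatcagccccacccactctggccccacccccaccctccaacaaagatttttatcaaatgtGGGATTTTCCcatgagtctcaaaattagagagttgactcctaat
Nfkbia, chr12:55492648-55492897, minus strand: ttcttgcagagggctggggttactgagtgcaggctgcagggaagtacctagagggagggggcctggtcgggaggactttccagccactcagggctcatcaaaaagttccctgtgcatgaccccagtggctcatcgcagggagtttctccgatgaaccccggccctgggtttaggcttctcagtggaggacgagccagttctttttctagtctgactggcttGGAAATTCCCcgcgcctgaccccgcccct
Tnfaip3, chr10:19015411-19015660, minus strand: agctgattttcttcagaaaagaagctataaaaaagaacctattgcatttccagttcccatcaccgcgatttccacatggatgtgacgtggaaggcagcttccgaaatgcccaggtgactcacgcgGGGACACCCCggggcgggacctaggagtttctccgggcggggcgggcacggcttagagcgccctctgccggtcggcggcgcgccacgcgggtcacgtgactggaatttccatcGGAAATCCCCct
The Il6 match begins 44 bases before the start and reads along the printed strand. The Nfkbia match begins 29 bases before the start and reads on the opposite strand. Tnfaip3 has a match at 125 bases, which reads on both strands and so overlaps itself, and another at 12 bases on the opposite strand. A match is a description of the letters and was not tested as a binding site.

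Over all kept cells, 5 of the 10 genes were at least 1.5-fold higher in the knockout library and none was at least 1.5-fold lower. Of the 16682 genes measured in all cells (20 UMIs or more in both libraries together), 11.3% were as much higher and 11.4% as much lower. S100a8 was at 49.99 CPM in WT against 306 CPM, S100a9 was 67.7 and 322 CPM, and Il1b was 56.8 and 144 CPM. Il6 was 5.25 and 9.89 CPM, and Ptgs2 was 16.2 and 24.8 CPM. The other 5 genes had ratios between 0.984 (Il1rn) and 1.248 (Il1a), with Nfkbia at 1.17, Tnfaip3 at 1.15 and Tnf at 1.19. These sums depend on the make-up of each library. With every class set to its share of WT UMIs, the ratio was 1.82 for Il1b against 2.53, 3.14 for S100a8 against 6.12, 2.29 for S100a9 against 4.76, 1.44 for Ptgs2 against 1.53, and 2.41 for Il6 against 1.88. With the shares of the knockout library the ratios were 1.76 for Il1b, 2.56 for S100a8, 1.88 for S100a9, 1.37 for Ptgs2 and 2.19 for Il6. Without the neutrophil-like cells they were 1.86 for Il1b, 6.06 for S100a8, 4.74 for S100a9, 1.26 for Ptgs2 and 1.89 for Il6. Cells in no class stayed in those sums, with 278 WT and 5547 knockout S100a8 UMIs and 272 and 4587 S100a9 UMIs. Of those knockout S100a8 UMIs, 2852 were in cells nearest to the neutrophil list and 2329 in cells nearest to the monocyte list. The median log2 ratio of the 10 genes was 0.46, beside -0.04 over all measured genes.

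**Figure D1:**
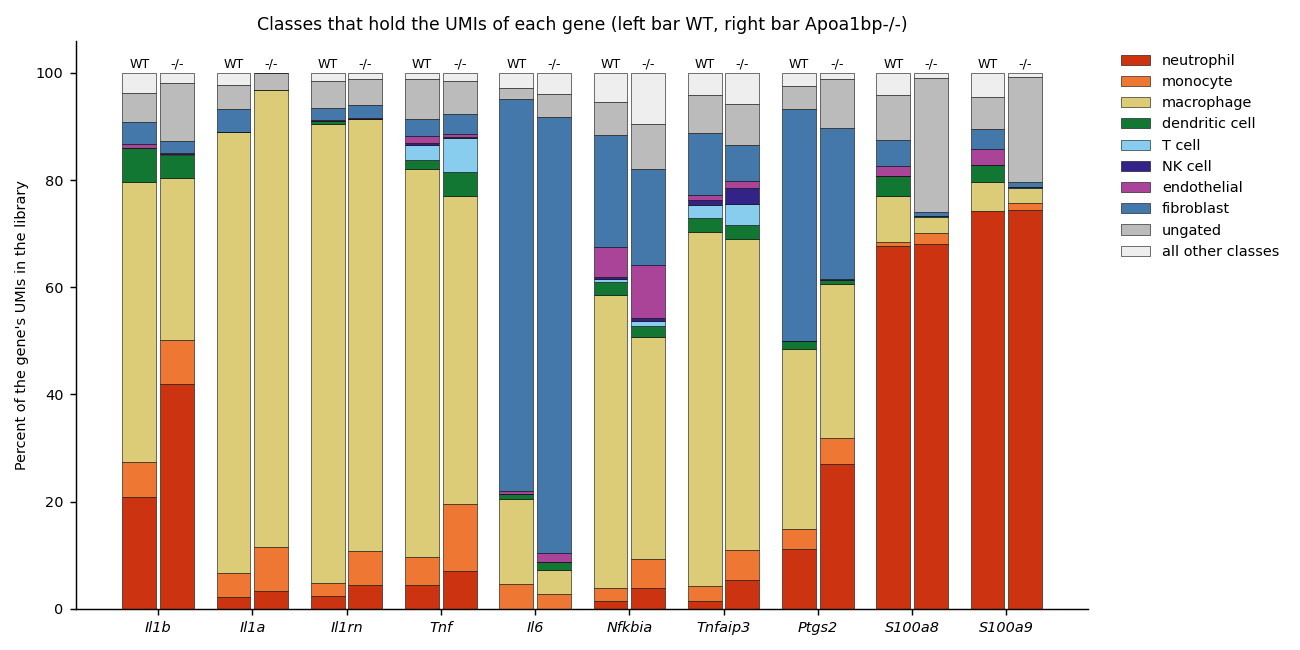
Percent of each gene's UMIs that each class holds, with the WT library on the left of each pair and the knockout library on the right. Neutrophil-like cells hold most S100a8 and S100a9 UMIs, fibroblast-like cells most Il6 UMIs and macrophage-like cells most Il1a, Il1rn and Tnf UMIs in both libraries.

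Il1b (ENSMUSG00000027398) encodes IL-1β, a cytokine that is made as an inactive precursor and cut by caspase-1. Its level was highest in neutrophil-like cells, at 9290 CPM in WT (8655 to 9959) against 15675 CPM in the knockout (15213 to 16146), followed by monocyte-like cells at 329 and 497 CPM. Dendritic cell-like cells had 249 and 431 CPM, and macrophage-like cells 71.5 and 122 CPM. The knockout library was higher in each of these 4 classes, with ratios of 1.69 (1.56 to 1.82), 1.51 (1.31 to 1.74), 1.74 (1.48 to 2.04) and 1.71 (1.61 to 1.81). The macrophage ratio lay between 1.69 and 1.80 under all 13 alternative settings. The neutrophil ratio was 1.35 where 2 markers were enough for a gate and 1.43 where doublet calls were kept. The monocyte ratio was under 1.5 in 7 of 13 settings, down to 1.249 with at least 4 markers. The monocyte marker list itself summed to 3173 CPM in WT and 7182 CPM in knockout monocyte-like cells. Exactly 3 markers were found in 56 of the 133 WT and 60 of the 253 knockout cells of this class. The part of these differences in the monocyte ratios was not tested.

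Single neutrophil-like cells varied widely in Il1b. In WT the lowest of the 55 cells had 2.32, the median 105 and the highest 362 Il1b UMIs per 10000. In the knockout the 158 cells ran from 0 through a median of 166 to 399, and the 2 groups of cells overlapped over most of their range. All WT neutrophil-like cells and 98.7% of those in the knockout had an Il1b UMI. NK cell-like cells, which should lack Il1b, had 1 UMI in each library, in 1.23 and 0.862% of cells (median depths 2060 and 3210 UMIs). In macrophage-like cells the share with an Il1b UMI was 13.2% in WT and 23.6% in the knockout, and 5.51 and 8.86% after each cell was thinned to 1000 UMIs.

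Macrophage-like cells were also split by 4 lists of states. Among the states compared, the Cx3cr1/class II cells had the most Il1b, at 134 and 222 CPM (ratio 1.66, 1.54 to 1.78). The lipid-associated cells, which express Gpnmb, Spp1 and Trem2, had 42.1 and 76.7 CPM (1.82, 1.66 to 2.01). Resident cells with Cd163, Lyve1 and Folr2 had 17.2 CPM in WT, and 9.95 CPM from 4 UMIs in the 73 knockout cells. Resident cells numbered 711 in WT, so this state was a smaller part of the knockout library.

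Macrophage-like cells held 52.2% of all Il1b UMIs in WT and 30.2% in the knockout, while neutrophil-like cells held 20.9 and 41.9%. The class with the most Il1b UMIs was thus the macrophage-like class in WT and the neutrophil-like class in the knockout. Outside myeloid cells Il1b was 6.41 and 12.7 CPM in fibroblast-like cells and 12.9 and 5.53 CPM in endothelial-like cells. Muscle fibre-like cells had 78.2 and 79.7 CPM from 54 UMIs in each library (1.018, 0.685 to 1.51), above the WT macrophage level. These UMIs were in 3.21 and 0.958% of the fibre cells, and 2 WT cells and 1 knockout cell held at least 50% of them. In the 239 knockout fibroblast UMIs, 56 came from 1 cell. The endothelial ratio of 0.428, from 28 and 26 UMIs, became 1.03 without the margin between lineages. Il1bos, which overlaps Il1b on the other strand, had 23 and 24 UMIs, and whether counting used strand is not stated.

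Il1a (ENSMUSG00000027399) encodes IL-1α, which acts on the same receptor. It was rare, with 45 UMIs in WT and 61 in the knockout, and macrophage-like cells held 82.2 and 85.2% of them. The macrophage level was 1.33 and 2.02 CPM, a ratio of 1.51 with an interval of 0.974 to 2.37 that includes 1. Without the cell with the most UMIs in each library it was 1.39. Gm14023, on the other strand, overlaps Il1a and had 56 and 51 UMIs.

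Il1rn (ENSMUSG00000026981) encodes the IL-1 receptor antagonist, which binds the receptor without activating it. Macrophage-like cells had 57.5 and 62.3 CPM (1.08, 1.01 to 1.16), the class that held 85.6 and 80.7% of its UMIs. It was highest per class in neutrophil-like cells, at 514 and 323 CPM (0.628, 0.433 to 0.922). That ratio rests on 44 and 90 UMIs, and it was 1.01 with a margin of 1.5 and 0.761 without the cell with the most UMIs in each library. Among the macrophage states compared, the leading one was not that of Il1b. The lipid-associated cells had the most Il1rn, at 75.6 and 72.0 CPM, and the Cx3cr1/class II cells had 43.8 and 43.6 CPM.

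The balance of antagonist to agonist transcripts differed between classes and between libraries. For each Il1b UMI, WT macrophage-like cells had 0.804 Il1rn UMIs (0.752 to 0.859) and knockout ones 0.511 (0.481 to 0.542). Neutrophil-like cells had 0.0553 and 0.0206, with intervals of 0.0399 to 0.0750 and 0.0165 to 0.0254. Over all cells the value was 0.490 in WT and 0.191 in the knockout. In monocyte-like cells the values were 0.182 and 0.143 and their intervals overlapped.

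**Figure D2:**
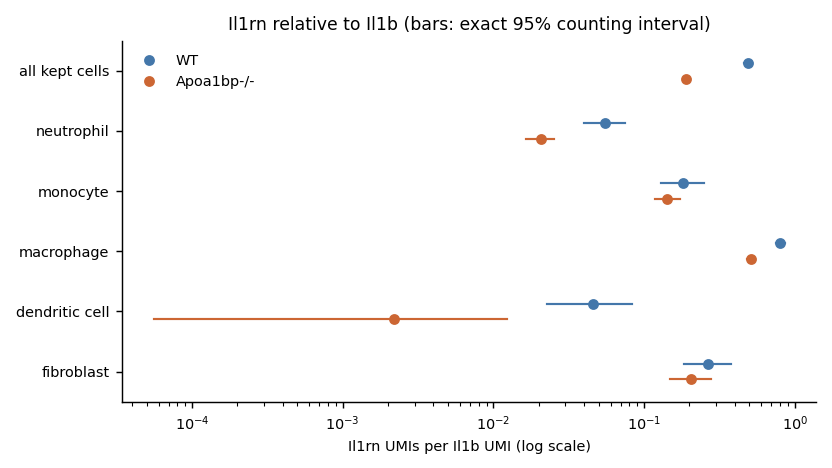
Il1rn UMIs per Il1b UMI on a log axis, by class, WT in blue and knockout in orange, with bars for the exact 95% counting interval. Macrophage-like cells have the highest values, 0.804 and 0.511, and the intervals of the libraries do not overlap for all cells and for neutrophil-, macrophage- and dendritic cell-like cells, the last from 11 and 1 Il1rn UMIs.

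Other IL-1 genes were read from a list of 18. In macrophage-like cells, 3 of 18 measured genes were at least 1.5-fold higher and 2 at least as much lower. Of all genes measured in that class, 4.96% were as much higher and 15.5% as much lower. Casp1, which encodes the protease that matures IL-1β, was 23.3 and 43.6 CPM (1.87, 1.69 to 2.06), and Il18, another cytokine cut by caspase-1, was 19.5 and 39.95 CPM (2.05, 1.85 to 2.28). Il1r2, the decoy receptor, was 0.684 and 1.40 CPM. Il1r1, the signalling receptor, was lower at 2.23 and 1.32 CPM, and the other lower gene was Il1rl1, the IL-33 receptor. The list's median log2 ratio was -0.18, beside -0.16 over all genes. In fibroblast-like cells, where Il1r1 was at 65.5 and 77.3 CPM, Il33 was lower (75.2 and 48.4 CPM), as were Il1r2 (15.7 and 8.37 CPM) and Irak3, an inhibitor of IL-1 receptor signalling (33.3 and 19.97 CPM), and Casp1 was higher.

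Tnf (ENSMUSG00000024401) encodes TNF, a cytokine made by macrophages and activated lymphocytes. Neutrophil-like cells had the highest level, 421 CPM in WT (295 to 582) and 265 CPM in the knockout (208 to 333). The ratio of 0.631 rests on 36 and 74 UMIs and was 0.797 without the cell with the most UMIs in each library. T cell-like cells came next, with 72.7 and 148 CPM, a ratio of 2.03 (1.251 to 3.42). Their share with a Tnf UMI was 7.74 and 15.3%, and 4.55 and 9.29% after thinning, against 0.262 and 0.337% in satellite cell- and myoblast-like cells (median depths 3529 and 7273 UMIs). The T cell values come from 23 and 68 UMIs. Dendritic cell-like cells had 14.5 and 44.6 CPM (3.07, 1.66 to 6.05) from 14 and 47 UMIs.

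Macrophage-like cells held 72.3% of all Tnf UMIs in WT and 57.4% in the knockout. Their level was 21.4 CPM (19.7 to 23.2) and 23.6 CPM (21.7 to 25.5), and the ratio of 1.10 had an interval that includes 1 (0.983 to 1.24) and a range of 0.871 to 1.14 over the settings. Tnf UMIs per Il1b UMI were 0.299 (0.273 to 0.328) and 0.193 (0.177 to 0.211) in this class. In fibroblast-like cells Tnf was 1.07 and 2.01 CPM, and its ratio of 1.87 turned to 0.599 as a mean over cells. After thinning, 0.133 and 0% of those cells had a Tnf UMI, close to 0.134 and 0% in satellite cell- and myoblast-like cells. Of 9 TNF receptor and signalling genes, macrophage-like cells had none past 1.5-fold, and T cell-like cells had 4 of 7 measured genes higher. These 4 were Tradd, Ripk1, Traf1 and Birc3, which encode proteins of TNF receptor signalling. Of all genes, 4.96% were higher and 15.5% lower in macrophage-like cells, and 14% and 14.3% in T cell-like cells. Traf1 was 111 and 172 CPM there (1.55, 1.03 to 2.38), and the intervals of the other 3 included 1.

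Il6 (ENSMUSG00000025746) encodes IL-6, a cytokine with roles in acute inflammation and muscle repair. Fibroblast-like cells held 73.2% of its UMIs in WT and 81.3% in the knockout. Their level was 10.6 CPM (9.36 to 12.0) in WT and 30.9 CPM (28.5 to 33.5) in the knockout, a ratio of 2.91 (2.51 to 3.38). This ratio lay between 2.67 and 3.59 under all 13 alternative settings. Il6 UMIs were seen in 4.15 and 12.3% of the cells, and in 0.640 and 2.1% after thinning to 1000 UMIs. In satellite cell- and myoblast-like cells the shares were 0.131 and 0.787% before thinning. No Il6 UMI was found in the T cell-, NK cell-, neutrophil- or muscle fibre-like cells of either library. For neutrophils, 0 UMIs allow up to 35.1 and 10.8 CPM (3 UMIs in each library). In the knockout fibroblasts 1 cell had 50 of the 584 UMIs and 23 cells together held 50% of them.

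Fibroblast-like cells are a mixture, and they were split by 3 marker lists that were written after these values had been seen. Cells led by the Tnc list (Tnc, Postn, Cthrc1 and other matrix genes) were 32.4% of WT and 56.9% of knockout fibroblast-like cells. Cells led by the Pi16 list were 32.5 and 14.0%, and those led by the Cxcl14 list 33.6 and 27.5%. Il6 was highest in the Tnc-list cells, with 17.5 and 38.2 CPM (2.18, 1.86 to 2.56). In the Cxcl14-list cells it was 2.04 and 9.37 CPM (4.60, 2.21 to 10.3), and in the Pi16-list cells 3.47 and 6.56 CPM (1.89, 0.819 to 4.14). The Tnc-list cells were also deeper, with medians of 9279 and 13689 UMIs against 4161 and 6983 in the Pi16-list cells. Fibroblast marker genes summed to 47367 CPM in WT and 40609 CPM in knockout fibroblast-like cells, and macrophage marker genes to 643 and 547 CPM. Their part in the Il6 result was not tested, and the ratios within each list are the values above.

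**Figure D3:**
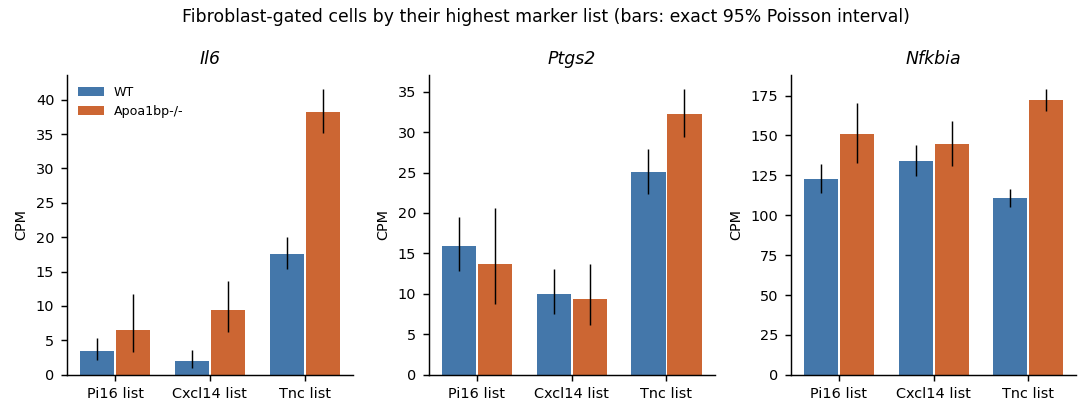
CPM of Il6, Ptgs2 and Nfkbia in fibroblast-like cells by their highest marker list, WT in blue and knockout in orange, with exact 95% Poisson intervals. Il6 is highest in the Tnc-list cells of both libraries and the knockout bar is the taller in each list, with overlapping intervals in the Pi16-list cells.

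Other classes had fewer Il6 UMIs, though not always a lower level. Monocyte-like cells had 21.3 and 11.5 CPM from 16 and 20 UMIs (0.541, 0.266 to 1.12), and the WT level (12.2 to 34.7) was above that of WT fibroblast-like cells. Pericyte- and smooth muscle-like cells had 14.0 and 11.8 CPM from 8 and 15 UMIs, and their WT interval (6.05 to 27.6) overlapped that of fibroblast-like cells. In the knockout the fibroblast level was the highest of the classes with at least 50 cells in both libraries. Macrophage-like cells had 2.02 and 1.24 CPM from 56 and 32 UMIs (0.615, 0.386 to 0.967), and the ratio was 0.716 without a margin between lineages. The ratios of the macrophage states lay on both sides of 1. The Cx3cr1/class II cells had 37 and 7 Il6 UMIs (3.93 and 0.912 CPM, 0.232, 0.0874 to 0.528), and the lipid-associated cells 13 and 24 (0.872 and 1.41 CPM, 1.62, 0.793 to 3.47). An Il6 UMI was seen in 0.558 and 0.541% of macrophage-like cells, against 0.131 and 0.787% of satellite cell- and myoblast-like cells. After thinning the shares were 0.163 and 0.186% against 0 and 0.113%. Of 6 measured genes of the IL-6 family and its signalling in macrophage-like cells, 1 was higher and 2 were lower. The shares over all genes of the class were 4.96% higher and 15.5% lower. Osm, which encodes oncostatin M, was the higher one (23.4 and 41.4 CPM, ratio 1.77, 1.60 to 1.95). The receptor gene Il6ra was lower there (84.3 and 56.1 CPM) and in fibroblast-like cells (14.9 and 5.46 CPM), and Osmr was the other lower gene of macrophage-like cells. Socs3, an inhibitor of IL-6 signalling, was 124 and 147 CPM in fibroblast-like cells.

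Nfkbia (ENSMUSG00000021025) encodes IkBα and was the most widespread of the 10 genes, found in every class. In WT it ran from 46.4 CPM in myocyte-like cells to 2255 CPM in neutrophil-like cells. Monocyte-like cells had 459 and 555 CPM, endothelial-like cells 352 and 372 CPM, dendritic cell-like cells 340 and 333 CPM, and macrophage-like cells 271 and 282 CPM. No class with at least 50 cells in both libraries reached a ratio of 1.5. The largest was 1.40 (1.33 to 1.47) in fibroblast-like cells, at 119 and 166 CPM. Within them it was 1.56 (1.46 to 1.66) in the Tnc-list cells, 1.08 (0.954 to 1.22) in the Cxcl14-list cells and 1.23 (1.06 to 1.42) in the Pi16-list cells. Thinned to 1000 UMIs, 10.8 and 12.2% of fibroblast-like cells had a Nfkbia UMI.

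Nfkbia is also among the genes that respond fast to tissue digestion, so a list of 12 dissociation and immediate early genes was read beside it. Over the fibroblast-like cells that list summed to 5372 and 4900 CPM, with Btg2 higher and Dusp1 lower. In macrophage-like cells it summed to 3097 and 3464 CPM, with Fosb and Btg2 higher. In neutrophil-like cells the sums were 22295 and 23275 CPM, with Fosb higher and Atf3 and Hspa1a lower. Its part in the levels of the 10 genes was not tested.

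Tnfaip3 (ENSMUSG00000019850) encodes A20, an enzyme that edits ubiquitin and stops NF-kB signalling. Its level was 397 and 574 CPM in neutrophil-like cells, 177 and 257 CPM in T cell-like cells and 120 and 214 CPM in NK cell-like cells. The NK ratio was 1.78 (1.11 to 2.96) from 23 and 85 UMIs, and the T cell ratio was 1.45 (1.05 to 2.03). Macrophage-like cells held 66.1 and 58.0% of its UMIs at 56.0 and 66.3 CPM (1.18, 1.10 to 1.27). Fibroblast-like cells had 11.2 and 10.6 CPM and endothelial-like cells 9.70 and 8.30 CPM. For each Nfkbia UMI, macrophage-like cells had 0.207 and 0.235 Tnfaip3 UMIs, and fibroblast-like cells 0.0945 and 0.0641.

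Other feedback inhibitors were read from a list of 11. In macrophage-like cells none was 1.5-fold higher and Bcl3 alone was as much lower (37.4 and 22.0 CPM, 0.587, 0.529 to 0.650). Of all genes in that class, 4.96% were higher and 15.5% lower. Zfp36, which destabilises cytokine transcripts and had the most UMIs of the list, was 396 and 431 CPM. Of the 8 NF-kB subunit and kinase genes none was past 1.5-fold in macrophage- or fibroblast-like cells. The median log2 ratios of these lists in macrophage-like cells were -0.22 and -0.16, beside -0.16 over all genes. In fibroblast-like cells the median of the feedback list was -0.47, beside -0.08 over all genes, with Tnip3 alone past 1.5-fold lower, from 29 and 11 UMIs. In endothelial-like cells Nfkbie was higher and Tnip2, Tnip3 and Zc3h12a were lower, with a median of -0.34 beside -0.15. Of all endothelial genes measured, 7.79% were higher and 16.3% lower. The endothelial Tnip3 level was 11.5 and 0.638 CPM, from 25 and 3 UMIs.

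Within a library, macrophage-like cells were split by whether an Il1b UMI remained after thinning. A Nfkbia UMI was seen in 42.4% of 271 Il1b-positive and 20.4% of 4647 Il1b-negative WT cells, and in 31.8% of 286 and 21.4% of 2942 knockout cells. Tnfaip3 was seen in 9.59 and 4.45% in WT and in 12.9 and 6.25% in the knockout, and Ptgs2 in 6.64 and 0.753% in WT and in 3.15 and 1.39% in the knockout. Tnf was seen in 5.17 and 1.29% in WT and in 2.1 and 1.53% in the knockout. In the knockout the intervals of Il1b-positive and Il1b-negative cells overlapped for Tnf (0.774 to 4.51 and 1.12 to 2.04%). They also overlapped there for Ptgs2 (1.45 to 5.89 and 1.00 to 1.89%), and not for the other pairs named here. These are descriptions of cells within 1 library each.

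Ptgs2 (ENSMUSG00000032487) encodes cyclooxygenase-2, the inducible enzyme of prostaglandin synthesis. Neutrophil-like cells had the highest level, 1426 and 1754 CPM (1.23, 1.01 to 1.51). Fibroblast-like cells had 19.4 and 27.0 CPM (1.39, 1.23 to 1.58), and macrophage-like cells 13.1 and 20.1 CPM (1.53, 1.33 to 1.75). The macrophage ratio was 1.245 after thinning and 1.45 with doublet calls kept. Over the settings the fibroblast ratio ran from 1.003 to 1.44 and the neutrophil ratio from 0.977 to 1.32. Fibroblast-like cells held most Ptgs2 UMIs of any class in WT (43.2%), while in the knockout fibroblast- (28.3%), macrophage- (28.7%) and neutrophil-like cells (27.1%) held similar parts. Among fibroblasts the Tnc-list cells had 25.05 and 32.3 CPM (1.29, 1.11 to 1.49). The Pi16-list cells had 15.9 and 13.7 CPM (0.860, 0.519 to 1.37), and the Cxcl14-list cells 10.0 and 9.37 CPM (0.937, 0.567 to 1.51). In endothelial-like cells 1 Ptgs2 UMI was found in each library.

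Of 9 other genes of prostanoid and leukotriene synthesis and receptors, Ptges and Alox5 were lower over all cells (15.0 and 8.54 CPM, 7.25 and 3.32 CPM). Of all genes there, 11.3% were higher and 11.4% lower, and such sums depend on the make-up of each library. Both genes were also lower in macrophage-like cells, of 9 measured (all genes 4.96% and 15.5%). Alox5 was 14.6 and 4.65 CPM in them (0.318, 0.257 to 0.391), and Ptges 0.973 and 0.388 CPM, from 27 and 10 UMIs. In neutrophil-like cells the Alox5 ratio was 1.18 (0.613 to 2.44). Ptges encodes a prostaglandin E synthase and Alox5 the lipoxygenase that starts leukotriene synthesis. In fibroblast-like cells 1 gene was higher and 1 lower, of 8 measured (all genes 10.6% and 14.4%), and Ptges was neither. The lower one was Ptgs1, which encodes the constitutive cyclooxygenase, at 17.6 and 6.73 CPM (0.383, 0.312 to 0.468). The higher one was Alox5ap, at 15.9 and 27.9 CPM. In monocyte-like cells Pla2g4a, Hpgd and Alox5ap were higher and no gene of the list was lower (all genes 11.9% and 15.5%). The Pla2g4a ratio of 1.62 there had an interval that includes 1 (0.726 to 4.09). Over all cells none of the list was higher, and its median log2 ratio was -0.45 beside -0.04 over all genes.

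S100a8 (ENSMUSG00000056054) and S100a9 (ENSMUSG00000056071) encode the 2 chains of calprotectin, which neutrophils store in large amounts. Neutrophil-like cells held 67.8 and 68.2% of the S100a8 UMIs and 74.2 and 74.3% of the S100a9 UMIs. S100a8 was 26478 CPM in WT and 54295 CPM in knockout neutrophil-like cells (2.05, 1.96 to 2.14). S100a9 was 39215 and 62354 CPM (1.59, 1.53 to 1.65). In single WT cells S100a8 ran from 0 through a median of 261 to 1194 UMIs per 10000, and in knockout cells from 0 through 410 to 2110, so the cells overlapped. The S100a9 ratio was under 1.5 in 6 of 13 settings, down to 1.17 as a mean over cells, while that of S100a8 stayed between 1.51 and 2.18. The neutrophil marker list itself, which contains neither gene, summed to 11931 and 20212 CPM, with 9 and 10 of its 10 genes found. The fibroblast list summed to 689 and 326 CPM in these cells, and their median depths were 1221 and 1562 UMIs. The part of these marker differences in the neutrophil ratios was not tested.

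In several other classes most S100a8 and S100a9 UMIs were in a few cells. In dendritic cell-like cells the 130 WT S100a8 UMIs were all in 1 cell, as were 140 of 141 S100a9 UMIs, against 4 knockout UMIs of each gene. In endothelial-like cells 1 WT cell had 57 of 59 S100a8 UMIs and 130 of 135 S100a9 UMIs. Without the leading cell of each library the endothelial S100a8 ratio was 2.07 in place of 0.101. The dendritic S100a9 ratio was 2.74 in place of 0.0260. Both recomputed ratios rest on fewer UMIs than the limit for a measured gene, so no rise in the knockout can be read from them. In macrophage-like cells S100a8 was 10.2 and 25.5 CPM and S100a9 8.93 and 25.6 CPM, and 3 knockout cells held 50% of the UMIs of each. After thinning, 0.508 and 0.774% of them had an S100a8 UMI, beside 0.581 and 0.265% of endothelial-like cells. In knockout fibroblast-like cells the UMIs were less concentrated in leading cells, and 11 and 9 cells held 50% of them. Before thinning, S100a8 UMIs were in 79 of these cells (5.04%) and S100a9 UMIs in 77 (4.92%), at a median depth of 9222.5 UMIs. The S100a8 share was not particular to them. Before thinning, 3160 of the 3328 knockout macrophage-like cells had no S100a8 UMI and 3215 had no S100a9 UMI, at a median depth of 6632.5. In WT fibroblast-like cells 26 and 23 cells had a UMI, and 2 held 50% for each gene. In monocyte-like cells S100a8 was 32.0 and 258 CPM, but 1 knockout cell had 168 of the 448 UMIs. S100a9 was 4.00 and 188 CPM there, from 3 and 326 UMIs (47.0, 15.9 to 229). No S100a9 UMI was found in 132 of 133 WT and 243 of 253 knockout monocyte-like cells. The T cell-like cells had 0 WT and 25 knockout S100a8 UMIs, of which 19 were in 1 cell. Ungated cells held 24.97% of the knockout S100a8 UMIs and 8.32% of those in WT. Of 8 other S100 genes and receptors, 6 were measured in neutrophil-like cells, with 1 higher and 2 lower (all genes 16.6% and 22.2%). Cd14, which encodes a co-receptor of TLR4, was the higher gene there (514 and 1998 CPM, 3.89, 2.86 to 5.41). S100a4 (561 and 190 CPM, 0.339, 0.225 to 0.512) and S100a10 (409 and 169 CPM, 0.412, 0.260 to 0.658) were lower. In macrophage-like cells Cd14 alone of 8 measured was higher (259 and 416 CPM, 1.61, 1.56 to 1.66), and none was lower (4.96% and 15.5%). Over all cells Cd14 was higher, and Tlr4 and S100a6, which had the most UMIs of the list, were lower (11.3% and 11.4%).

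**Figure D4:**
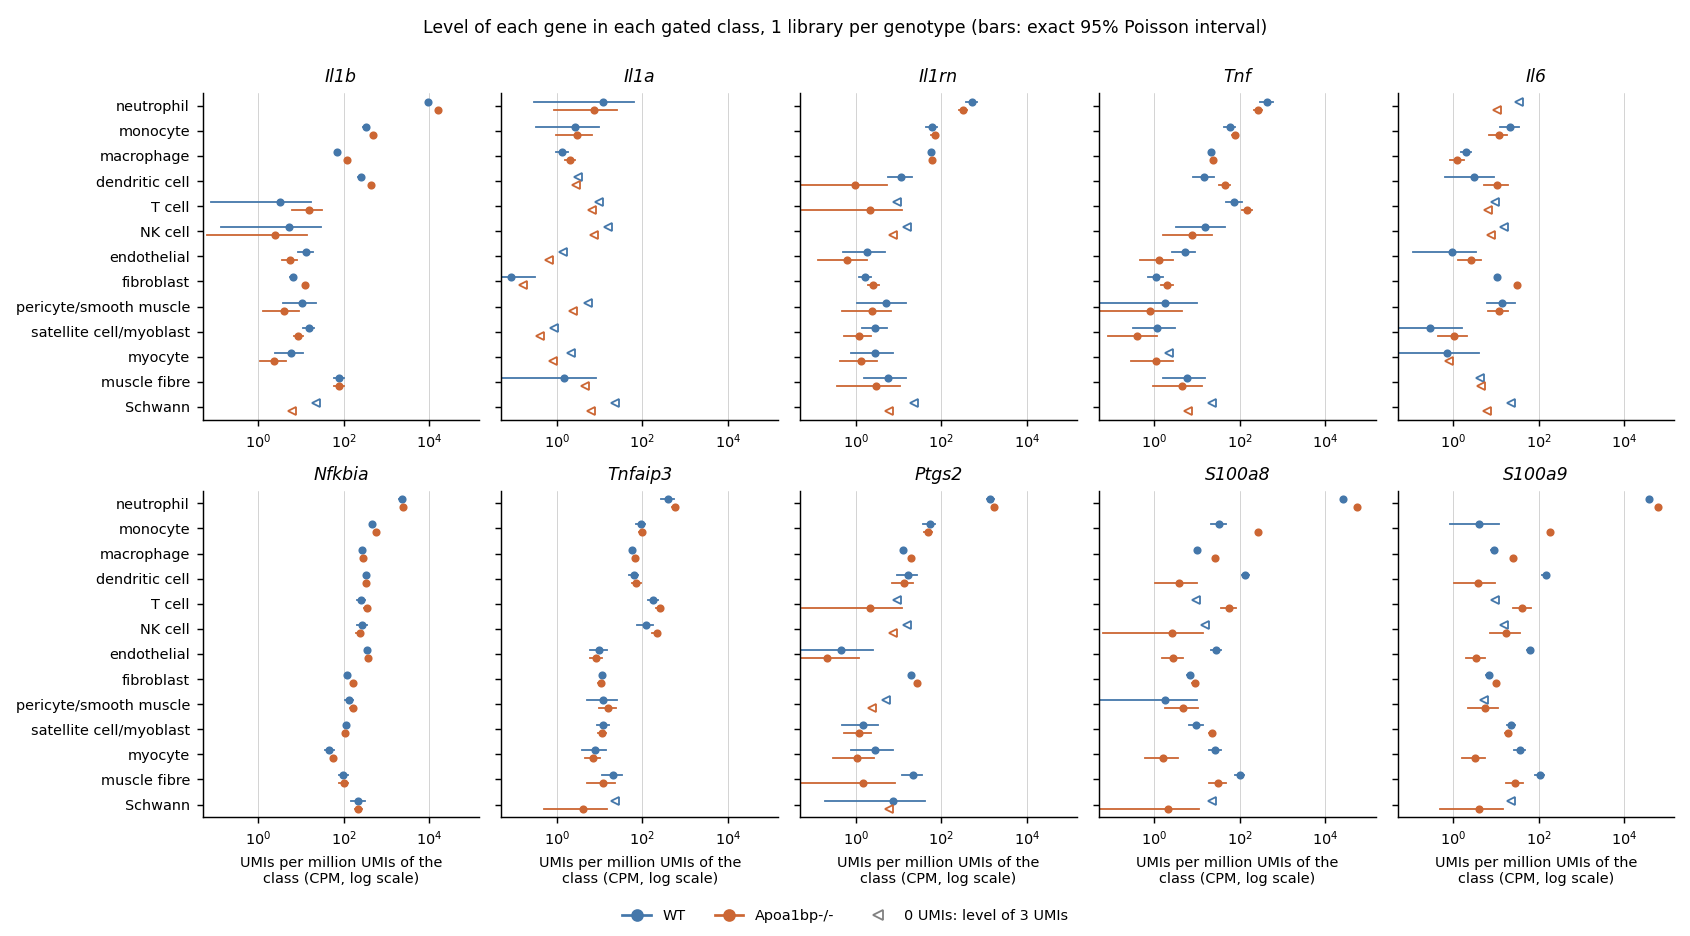
CPM of each gene on a log axis in the 13 classes with at least 50 cells in both libraries, WT in blue and knockout in orange, with exact 95% Poisson intervals cut at the left edge. Open triangles stand at the level of 3 UMIs where a class has 0 UMIs. Neutrophil-like cells are at the top for Il1b, Tnf, Il1rn, Nfkbia, Tnfaip3, Ptgs2, S100a8 and S100a9 in both libraries.

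Class by class, the count of genes past 1.5-fold was as follows, each beside the share of all genes measured in the class. In neutrophil-like cells Il1b, S100a8 and S100a9 were higher and Tnf and Il1rn lower, of 8 measured (all genes 16.6% higher and 22.2% lower). In monocyte-like cells Il1b, S100a8 and S100a9 were higher and Il6 lower, of 9 measured (11.9% and 15.5%). In macrophage-like cells Il1b, Il1a, Ptgs2, S100a8 and S100a9 were higher and Il6 lower, of 10 measured (4.96% and 15.5%). The median log2 ratio of the members there was 0.42, beside -0.16 over all genes. In dendritic cell-like cells Il1b and Tnf were higher and S100a8 and S100a9 lower, of 7 measured (12.7% and 12.1%).

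In T cell-like cells Tnf and S100a8 were higher and none was lower, of 4 measured (14% and 14.3%). In endothelial-like cells none was higher and Il1b, S100a8 and S100a9 were lower, of 5 measured (7.79% and 16.3%), and for both S100 genes that rests on the WT cell named above. In fibroblast-like cells Il1b, Tnf, Il6 and Il1rn were higher and none lower, of 9 measured (10.6% and 14.4%). By fibroblast list the Il1b ratio was 3.10 (2.33 to 4.17) in the Tnc-list cells, 1.12 (0.590 to 2.08) in the Cxcl14-list cells and 0.241 (0.0636 to 0.652, from 57 and 4 UMIs) in the Pi16-list cells. Few Pi16-list cells carry that last ratio, as 1.27% of 1255 WT and 1.37% of 219 knockout cells had an Il1b UMI. Of the 4 genes, Il6 had the most UMIs, and the Il1rn ratio of 1.53 (0.991 to 2.38) was 0.959 with doublet calls kept. In NK cell-like cells Tnfaip3 was higher and none was lower, of 2 measured (15.2% and 14.6%). In satellite cell- and myoblast-like cells S100a8 was higher and Il1b lower, of 5 measured (11.2% and 15.6%). There S100a8 was 9.59 and 22.4 CPM (2.34, 1.60 to 3.51), with 135 of the 172 knockout UMIs in 1 cell. Il1b was 15.1 and 8.74 CPM (0.578, 0.397 to 0.847), with 32 of the 67 knockout UMIs in 1 cell.

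In myocyte-like cells none was higher and S100a8 and S100a9 were lower, of 4 measured (8.89% and 18.1%), and 1 WT cell had all 37 S100a8 UMIs and 1 WT cell had 48 of 51 S100a9 UMIs. In muscle fibre-like cells none was higher and Tnfaip3, S100a8 and S100a9 were lower, of 5 measured (9.61% and 28.7%). The Tnfaip3 ratio there, 0.582 from 14 and 8 UMIs, had an interval that includes 1, and 1 WT cell had 53 of 69 S100a8 UMIs. Pericyte- and smooth muscle-like cells (3 measured) and Schwann-like cells (1 measured) had no gene past 1.5-fold. Cells in no gate had Il1b, Il6, Ptgs2, S100a8 and S100a9 higher and none lower, of 9 measured (10% and 11.1%).

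**Figure D5:**
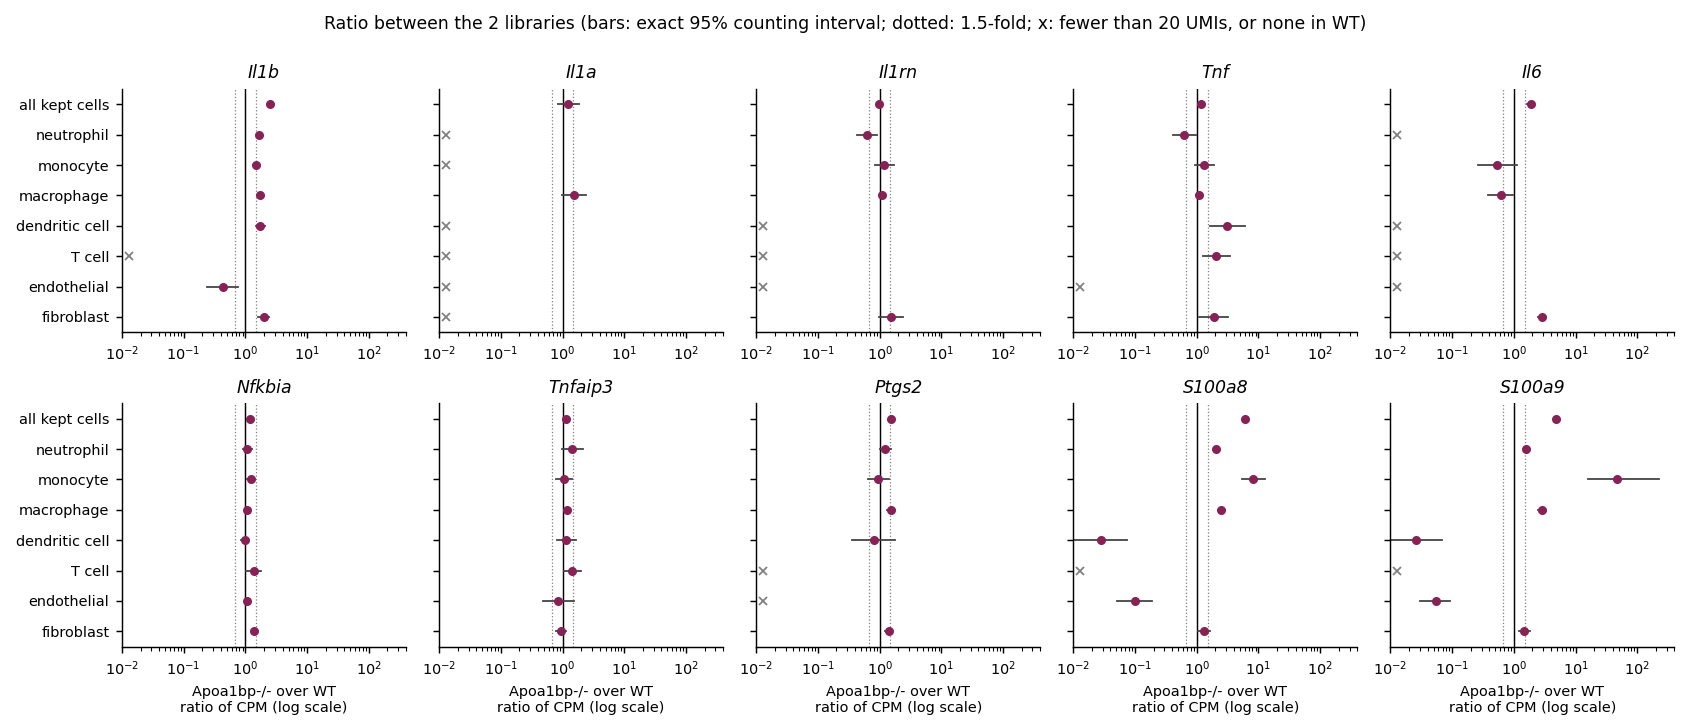
Knockout over WT ratio of CPM on a log axis, by class, with the exact 95% counting interval cut at the left edge. The dotted lines mark 1.5-fold and crosses mark classes with fewer than 20 UMIs or with 0 in WT. Il1b lies right of the 1.5-fold line in the 4 myeloid classes, Nfkbia lies between the lines in every class, and Il6 is at 2.91 in fibroblast-like cells.

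The genes most alike in pattern were found by Pearson correlation of log2(CPM + 5) over 26 points, the 13 classes in both libraries, among 11542 genes. The points share libraries, depth and the marker gates, and so no p is given. S100a8 and S100a9 were each other's nearest gene (r = 0.98). Il1b was nearest to Sirpb1b (0.98), Cd80 and Mefv, and Il1rn to Clec4d (0.97), a neutrophil gate marker, and Tlr13. Nfkbia was nearest to Mcl1 (0.93), Csrnp1 and Dusp1, Tnfaip3 to Ptk2b (0.97), Tnf to Slfn1 (0.96) and Nfkbid, and Ptgs2 to Nlrp3 (0.94) and Clec4e. Il6 stood apart, with Cxcl1, a chemokine gene, as the nearest at 0.81. Il1a was under 20 CPM in all classes and was not compared.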

How the data were processed

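The authors deposited 1 matrix of raw UMI counts per gene and barcode for each library, not normalized, and the barcodes and genes were in files beside it. Cell Ranger made the matrices: the submitters' processing notes give version 2.1.1, whereas version 5.0.0 stands in the headers of the files. No source used here gives the genome build or the annotation. Per the labels' protocols, muscle was digested with collagenase D and strained before droplet sequencing.

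Removed were 49 WT and 31 knockout barcodes with under 200 genes, 156 and 211 with more than 10% of UMIs from mitochondrial genes, and Scrublet doublet calls (1493, 10.8% of WT, and 532, 5.81% of knockout, against expected 11.2 and 7.51%, at 0.8% per 1000 barcodes). Each cell went to the highest of 17 marker lists if 3 markers were found and the score was 1.25 times that of any other lineage, and 788 WT and 575 knockout cells stayed ungated. UMIs were summed per class. Levels carry exact Poisson, ratios exact conditional and shares exact Clopper-Pearson 95% intervals. These cover counting error alone. A gene was measured with 20 UMIs over both libraries, and 1.5-fold was the limit of a difference. Classes of at least 50 cells in both libraries were compared. Median log2 ratios used a prior of 0.5 UMIs. Promoters came from RefSeq. The calculation was tested on simulated counts. All 10 genes are named, and of the other lists the genes past 1.5-fold with the most UMIs, at most 3 per class and direction, and the gene with the most UMIs. The 3 nearest genes by correlation were taken for each gene. Il1r1 in fibroblast-like cells and the fourth TNF gene of T cell-like cells were named after their values were seen, and the 3 fibroblast lists were written after them too. The members and lists were chosen with earlier results of these data known. Python 3.11.15, scanpy 1.11.5, numpy 2.4.6, scipy 1.17.1, pandas 2.3.3 and matplotlib 3.10.9 were used.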

Additional observations from a re-analysis of the deposited data

Results flagged for a closer look

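Cells that passed quality control but fell in no gate were compared only as a group without a cell type. In them 5 of the 9 genes measured were at least 1.5-fold higher in the knockout library, beside 10% of all genes. These were 788 WT and 575 knockout cells. The ratio was 16.5 for S100a8 (70.7 and 1169 CPM), 14.0 for S100a9 (69.2 and 967 CPM), 4.46 for Il1b (53.4 and 239 CPM), 3.67 for Il6 (1.78 and 6.53 CPM) and 2.92 for Ptgs2 (12.0 and 35.0 CPM). In the knockout 1 ungated cell had 1980 of the 5547 S100a8 UMIs. By their highest list, 38 of the knockout ungated cells were nearest to neutrophils and held 2852 S100a8 UMIs, and 69 were nearest to monocytes and held 2329.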

How the results depend on the processing

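Across 14 alternative settings, 785 recomputed ratios were compared with the reported ones: 676 stayed within the counting interval, 102 left it, and 7 that had been past 1.5-fold changed direction. The settings with the most ratios outside were every class at its WT share (6 of 10), thinning to 1000 UMIs (27 of 51) and a mean over cells (24 of 61). The changes of direction were Il1rn in neutrophil-like cells with a margin of 1.5 (1.012), S100a9 in dendritic cell-like cells (2.74), S100a8 (2.07) and S100a9 (1.196) in endothelial-like cells without the cell with the most UMIs, Tnf in fibroblast-like cells as a mean over cells (0.599), Il1rn in fibroblast-like cells with doublet calls kept (0.959), and Il1b in endothelial-like cells without a margin (1.03). Leaving out the leading cell removes 1 cell of each library, and those ratios then rest on few WT UMIs. No rise in the knockout can be read from them. The cause of the changes of direction was not tested. The number of genes at least 1.5-fold higher in neutrophil-like cells was 3 and became 1 with 2 markers and 1 with doublet calls kept. The number at least 1.5-fold lower there was 2 and became 0 with a margin of 1.5, 0 without the leading cell and 1 as a mean over cells. The count of 1 lower gene became 0 in monocyte-like cells when thinned or with at least 50 UMIs required, and 0 in macrophage-like cells without a margin, with doublet calls kept, thinned or as a mean over cells. In fibroblast-like cells the 0 lower genes became 1 as a mean over cells. Members with a promoter match numbered 3, or 10 with 1 mismatch allowed. Leaving out barcodes found in both libraries and leaving out the leading cell were chosen after the data had been seen, as was the split of fibroblasts, and the shared barcodes moved no ratio out of its interval. With 1 library per genotype no library could be left out, and depth limits Il1a, Il6 outside fibroblasts and every gene in T and NK cell-like cells. No paired analysis was possible because each genotype has 1 library.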
